A study of Danio rerio with 6 samples.

Results

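The urotensin II peptides and the genes of the neurons that touch the cerebrospinal fluid were described by 6 genes: urp1, urp2, uts2a, uts2b, pkd2l1 and pkd1l2a. They were chosen by name, with earlier results of these arrays known. On the arrays, 19260 genes had a transcript cluster (a set of probes for one transcript) that carried their symbol alone, and 5 of the 6 were among them, each with exactly 1. The gene pkd1l2a was matched by none, by symbol or by Entrez ID, and is not analysed here. Because the values of these arrays entered the choice, the group differences of the 5 genes are a description and carry no p-value.

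RNA of whole zebrafish larvae at 10 days post fertilization (dpf) was hybridized to 6 Affymetrix GeneChip Zeb Gene 1.0 ST arrays, each with RNA of 5 larvae. All larvae were of the line Tg (mbp:nfsB-egfp), in which the promoter of mbp, the myelin basic protein gene, drives a fusion of nitroreductase and EGFP in oligodendrocyte lineage cells. The 3 control arrays held larvae kept in 0.2% DMSO in E3 medium, and the 3 metronidazole arrays held larvae that also received 5 mM metronidazole from 5 dpf for 5 days in the dark. Nitroreductase turns metronidazole into a toxin in the cells that make it. The arrays hold no metronidazole-treated larvae without the transgene, so the drug and any loss of cells cannot be told apart. The sources used here do not say whether the control larvae were kept in the dark too, so light may also differ between the groups. In RNA of whole larvae, fewer cells of a type and less RNA per cell cannot be told apart either.

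Neurons that contact the cerebrospinal fluid, also called Kolmer-Agduhr cells, line the central canal of the spinal cord and use GABA as transmitter. Their apical bundle carries Pkd2l1, a polycystin cation channel that responds to bending of the spine, and in zebrafish they release the small cyclic peptides Urp1 and Urp2. Together with the Reissner fiber, a thread in the canal fluid, these peptides help to keep the body axis straight in zebrafish. The paralogues uts2a and uts2b encode urotensin II itself, a peptide first known from the caudal neurosecretory system of fish.

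The log2 signals had been brought to nearly the same scale, with array medians between 5.10 and 5.14. For the median transcript cluster, the SD over 3 arrays of a group was 0.197 (control) and 0.216 (metronidazole). Over all 75212 transcript clusters, limma called 0 higher and 0 lower at a Benjamini-Hochberg adjusted p under 0.05 (0.0% in each direction; lowest adjusted p = 0.444). At an unadjusted p under 0.05 limma had 1673 higher and 1931 lower, with 3120 and 3283 when control replicate 1 was left out, 972 and 1182 without control replicate 2 and 1023 and 1512 without control replicate 3. The methods' t-test called 0 after the same adjustment, and 1998 and 1407 without it. With 3 arrays a group, precision is limited throughout. As a check of the cells that carry the transgene, mbpa had a log2 difference of -0.14 (standard error 0.16) and mbpb of 0.03 (standard error 0.13), where both were chosen outside the rule for named genes.

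The peptide gene urp2 (Entrez gene 100001008) showed the widest separation of the 5 genes. Its log2 signal was 5.54, 5.71 and 5.63 in control replicates 1, 2 and 3. It was 6.17, 6.84 and 6.37 in metronidazole replicates 1, 2 and 3. Every metronidazole array therefore lay above every control array, and the lowest of the former exceeded the highest of the latter by 0.46. The group means were 5.63 ± 0.09 and 6.46 ± 0.34 (SD, n = 3), a log2 difference of 0.83 (standard error 0.19) or 1.78-fold. With the arrays taken by replicate number, the difference was 0.63, 1.13 and 0.74. By the size of its difference, urp2 stood at place 92 of the 19260 genes. It did not reach 2-fold, a level that 0.218% of genes reached upwards.

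The control arrays agreed closely in urp2, while the metronidazole arrays did not. The range of the 3 control values was 0.17 against 0.67 for the metronidazole values. Of all transcript clusters, 15.9% had a smaller SD than urp2 in control and 73.1% in the metronidazole group.

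**Figure D1:**
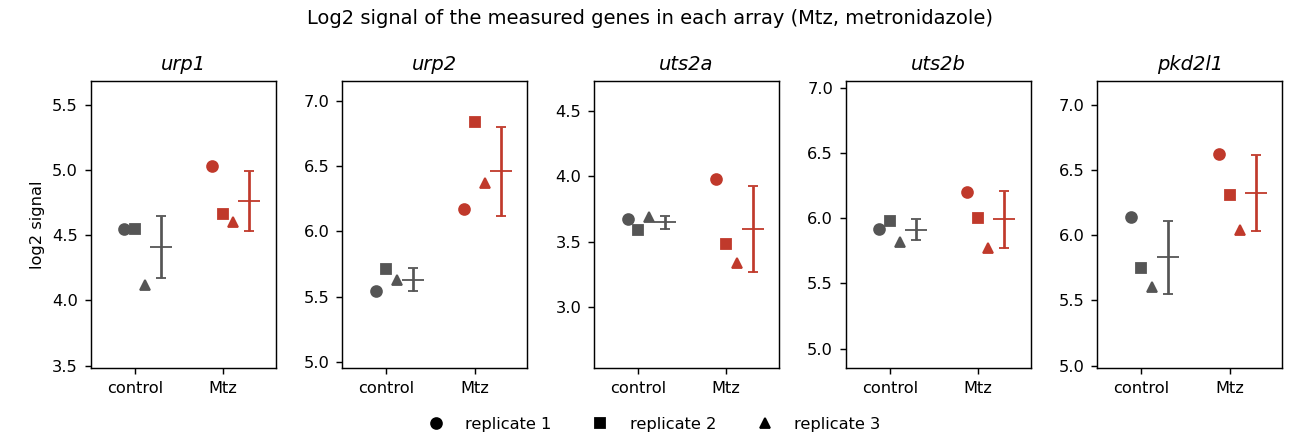
Log2 signal (vertical axis, each panel spanning the same number of log2 units) of the 5 measured genes in control and metronidazole (Mtz) arrays. Symbols mark the replicate number, and the dash with bars beside them is the mean ± SD of 3 arrays. In urp2 the metronidazole arrays begin at 6.17 and the control arrays end at 5.71, while uts2a and uts2b overlap.

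The second peptide gene of these neurons, urp1 (Entrez gene 100329524), had a smaller difference. Its log2 signal was 4.55, 4.55 and 4.12 in the control arrays. It was 5.03, 4.66 and 4.60 in the metronidazole arrays. The groups did not overlap, but only 0.06 lay between the lowest metronidazole and the highest control value. The means were 4.41 ± 0.24 and 4.76 ± 0.23 (SD, n = 3), a log2 difference of 0.36 (standard error 0.19) or 1.28-fold. By replicate number the difference was 0.48, 0.11 and 0.48, so the pair of replicate 2 was nearly level. The mean signal of urp1 lay under the median of all transcript clusters, where the compression of folds by the authors' background step is unknown.

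The channel gene pkd2l1 (Entrez gene 567026) had a larger difference than urp1 with groups that overlapped. Its log2 signal was 6.14, 5.75 and 5.60 in the control arrays. It was 6.62, 6.31 and 6.04 in the metronidazole arrays. Control replicate 1 lay above metronidazole replicate 3 by 0.10 log2 units, and all other control arrays lay below all metronidazole arrays. The means were 5.83 ± 0.28 and 6.32 ± 0.29 (SD, n = 3), a log2 difference of 0.49 (standard error 0.21) or 1.4-fold. Taken by replicate number, the difference was even, at 0.47, 0.55 and 0.45.

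The urotensin II genes showed little difference between the groups. The log2 signal of uts2a (Entrez gene 405774) was 3.67, 3.59 and 3.69 in the control arrays. It was 3.98, 3.48 and 3.34 in the metronidazole arrays. The control values lay inside the range of the metronidazole values, and the log2 difference was -0.05 (standard error 0.19). The mean signal of uts2a, 3.63, lay under the median of all transcript clusters and near the lower quartiles of the arrays (3.43 to 3.5). A signal this low may limit what fold could be seen, though no floor was measured. The log2 signal of uts2b (Entrez gene 402853) was 5.92, 5.98 and 5.82 in the control arrays. It was 6.2, 6.0 and 5.77 in the metronidazole arrays. Again the control range fell within the metronidazole range, with a log2 difference of 0.08 (standard error 0.15). By replicate number, uts2a differed by 0.31, -0.11 and -0.34 and uts2b by 0.28, 0.02 and -0.05, so the direction was not shared by the replicates of either gene.

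Of the 5 measured genes, 4 had a positive difference and 1 a negative one, with a median of 0.36 against 0.02 over all genes. The groups did not overlap, with metronidazole higher, for 2 of the 5, where this held for 5.14% of all genes. They did not overlap in the other direction for 0 of the 5, against 5.73% of all genes. These counts come from the values that entered the choice of the genes, and nothing is read from them. Of the 5, 3 (urp2, uts2b and pkd2l1) had a mean signal above the median of all transcript clusters.

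**Figure D2:**
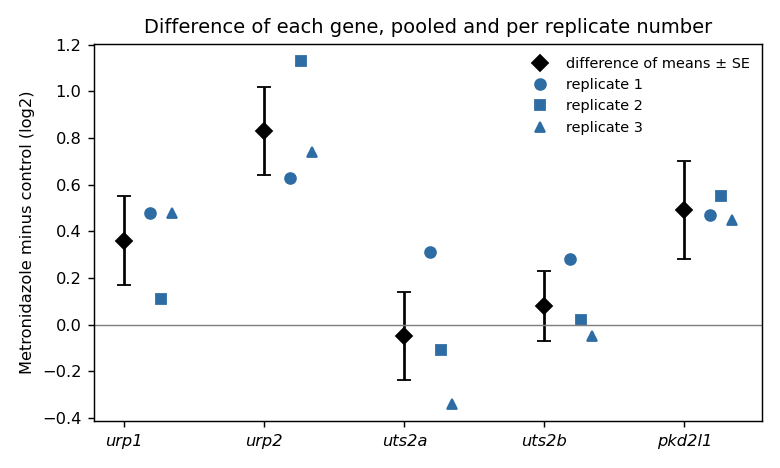
Difference in log2 signal between metronidazole and control for each of the 5 genes. Black diamonds are differences of means with the limma standard error, and blue symbols the difference within each replicate number. The 3 replicates of urp2 (0.63 to 1.13) and pkd2l1 (0.45 to 0.55) all lie above 0, whereas those of uts2a run from -0.34 to 0.31.

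Within the groups, the 5 genes did not vary as one. Metronidazole replicate 1 was the highest array of its group for 4 genes, with deviations from the group mean of 0.26 in urp1, 0.38 in uts2a, 0.21 in uts2b and 0.29 in pkd2l1. For urp2 it was the lowest, with a deviation of -0.29. Metronidazole replicate 3 was the lowest array of its group for the same 4 genes. The highest urp2 value came from metronidazole replicate 2, which deviated by 0.38, while the other genes deviated there by -0.12 to 0.01. In the control group, replicate 3 was the lowest array for urp1, uts2b and pkd2l1.

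**Figure D3:**
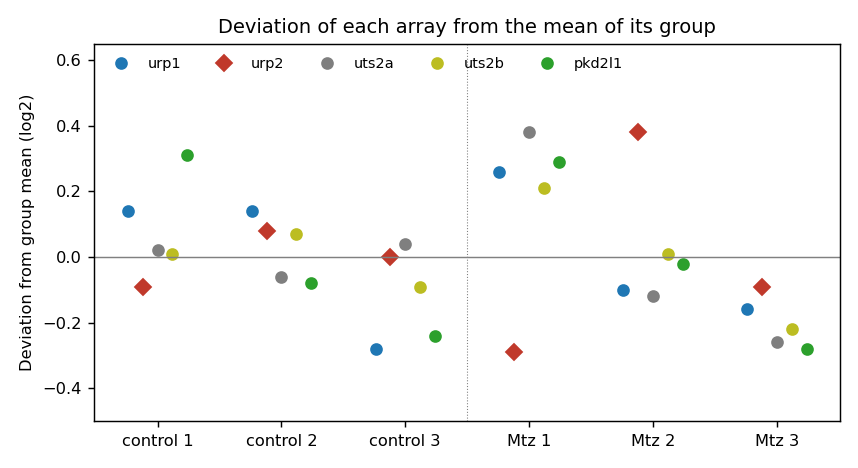
Deviation of each array from the mean of its own group (log2 units) for the 5 genes, which removes the difference between control and metronidazole (Mtz). In the first metronidazole array urp2 (red diamond, -0.29) lies below 0 and the other genes (0.21 to 0.38) above it.

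The likeness of the profiles over the 6 arrays was measured by the root mean square difference of the log2 signals after each gene was centred on its own mean. It was 0.15 between urp1 and pkd2l1, 0.41 between urp1 and urp2, and 0.40 between urp2 and pkd2l1. Of all other genes, 2.4% were nearer to urp1 than pkd2l1 was, but 69.9% were nearer to urp1 than urp2 was. Seen from urp2, 10.1% of genes were nearer than pkd2l1 and 13.6% were nearer than urp1. The paralogues uts2a and uts2b were 0.13 apart, where 2.22% of genes were nearer to uts2a than uts2b was, and 6.55% were nearer to uts2b than uts2a was. Genes that vary little over the arrays lie close together whatever their pattern. The distance of a flat profile from uts2a or uts2b is not given here, so 0.13 is not read as shared variation. All arrays share their preparation and 6 values are few, so these distances describe the arrays at hand. They also include the group differences, whose values entered the choice of the genes. The shares of nearer genes are therefore a description only, and nothing is read from them.

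The 5 genes nearest to urp2 were tent5c, which encodes a poly(A) polymerase, slc2a15b, a sugar transporter, matn3b, a cartilage matrix protein, aglb, the glycogen debranching enzyme, and kcna6a, a potassium channel. Their root mean square differences from urp2 lay between 0.142 and 0.204, and their log2 differences between metronidazole and control between 0.51 and 0.62. The distance includes the group difference, and a gene with the same signal on every array would be 0.46 from urp2 and 0.26 from urp1. The 5 nearest to urp1, at 0.042 to 0.062, were chac1, which encodes a glutathione-degrading enzyme, fam135b, dgkd, a diacylglycerol kinase, ZMIZ2 and bcl2l1, an inhibitor of apoptosis of the BCL2 family.

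Other genes of the pathway and of the cells around it were read in 12 lists of 155 genes, of which 117 were measured. By limma, 0 of the 117 passed the adjusted p (the lowest was 0.952). At an unadjusted p under 0.05, limma had 5 higher and 1 lower. The methods' t-test had 10 higher and 1 lower. Its share of all genes is not given here, so these 2 counts have no matching background and nothing is read from them. Over all transcript clusters that test had 1998 higher and 1407 lower. The limma counts were 4.27% higher and 0.855% lower, against 1.68% and 4.27% of all genes. The groups did not overlap for 14 genes with metronidazole higher (12%, against 5.14% of all genes) and for 6 with metronidazole lower (5.13%, against 5.73%). The lists were written with earlier results of these arrays known, so these shares are a description only.

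Receptors and related peptides were read next. Of the 7 listed urotensin II receptor genes, only uts2r was measured. Its log2 signal was 6.58, 6.29 and 6.37 in control and 6.63, 6.61 and 6.51 in metronidazole-treated larvae, a difference of 0.17 (standard error 0.13). The gene uts1 encodes urotensin I, a relative of corticotropin-releasing hormone that shares the caudal neurosecretory system with urotensin II. Its log2 signal lay between 3.67 and 3.77 in control and between 3.63 and 3.76 in metronidazole-treated larvae. The hormone genes crha and crhb differed by -0.12 and -0.09, and the urocortin gene ucn3l by 0.17. As the mean over its transcript clusters crhb was at -0.21. The binding protein gene crhbp had the largest difference of this list, 0.48 (standard error 0.23, limma adjusted p = 0.952), with overlapping groups and a higher value in metronidazole for each replicate number (0.29, 0.38 and 0.76).

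Somatostatins are the nearest peptide relatives of urotensin II, and sst1.1 is also used by some of the fluid-contacting neurons in zebrafish. The log2 signal of sst1.1 was 7.04, 6.77 and 7.24 in control and 6.08, 7.0 and 6.43 in metronidazole-treated larvae. Metronidazole replicate 2, the highest array of urp2, was also the highest of its group here, and it overlapped the control values. The difference was -0.51 (standard error 0.26) for sst1.1, -0.59 (standard error 0.36) for sst2 and -0.33 (standard error 0.16) for the receptor gene sstr5. Single arrays carried much of the former 2 values: sst1.1 differed by -0.30 without metronidazole replicate 1 and by -0.19 as the mean over its transcript clusters, and sst2 by -0.28 without control replicate 3 and -1.0 without control replicate 1. Over the 9 measured genes of this list 5 were positive and 4 negative, with a median of 0.04 beside 0.02 over all genes.

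As a list, the identity genes of the fluid-contacting neurons had a median near that of all genes. Of 23 measured genes, 14 were positive and 9 negative, with a median of 0.05. Genes of this list are also used by other cells, as olig2, tal1 and gata2a are. In RNA of whole larvae the median can therefore not be assigned to the fluid-contacting neurons. The gene gad1a, which encodes an enzyme of GABA synthesis, had a log2 signal of 7.23, 7.14 and 7.07 in control and 7.49, 7.39 and 7.43 in metronidazole-treated larvae. The groups did not overlap and the difference was 0.29 (standard error 0.12, limma adjusted p = 0.952). The transcription factor gene nkx2.2b differed by 0.39 (standard error 0.20), with a value of 4.60 in metronidazole replicate 1 beside 3.91 and 4.06 in the others. It was 0.19 without that array, and its mean signal lay under the median of all transcript clusters. The gene olig2, which marks the precursors of motor neurons, oligodendrocytes and part of these neurons, differed by -0.31 (standard error 0.17), and by -0.19 without control replicate 1. The 23 differences ran from -0.31 to 0.39. The median of the list was -0.22, 0.24 and 0.23 by replicate number.

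The Reissner fiber and cilia genes also lay around 0. Of 16 measured genes, 8 were positive and 8 negative, with a median of 0.01 and a range from -0.31 to 0.23. Those with the lowest unadjusted p were cfap298 (-0.31, standard error 0.19), which is needed for the assembly of motile cilia, spag6 (0.23), a protein of the ciliary axoneme, and tubb4b (0.22), a tubulin. They were -0.15 without metronidazole replicate 3, 0.06 without control replicate 3 and 0.08 without metronidazole replicate 1, respectively. The fiber protein gene sspo, chosen outside the rule, was at 5.34, 5.07 and 5.19 in control and 5.38, 5.01 and 5.14 in metronidazole-treated larvae. Of the 8 other polycystin genes listed, only pkd2 was measured, and it differed by -0.01 (standard error 0.15).

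Markers of other cells were set beside urp2, urp1 and pkd2l1. Of 17 pan-neuronal genes, 9 were positive and 8 negative (median 0.02). The RNA-binding protein gene elavl4 differed by 0.28, the synaptic vesicle gene syt1a by 0.17 and the neurofilament gene nefma by 0.23 (0.11 without control replicate 1 or metronidazole replicate 3). The median of the list, with each gene centred on its own mean, ran from -0.08 to 0.08 over the control arrays and from -0.28 to 0.13 over the metronidazole arrays, so the groups overlapped. Of 8 genes of ependymal cells and radial glia, 4 were positive and 4 negative (median -0.02), with slc1a3b, a glutamate transporter, at 0.34, glula, a glutamine synthetase, at 0.27 and fabp7b, a lipid carrier, at -0.29. Without metronidazole replicate 1 glula was at 0.09, and as the mean over its transcript clusters fabp7b was at -0.09.

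The motor neuron list had higher array medians in metronidazole-treated larvae, as urp2 and urp1 did. Of its 9 measured genes, 7 were positive and 2 negative, with a median of 0.15. The median of the centred genes ran from -0.29 to 0.01 over the control arrays and from 0.08 to 0.18 over the metronidazole arrays, without overlap. The gene slc18a3a, which encodes the vesicular acetylcholine transporter, had a log2 signal of 7.55, 7.34 and 7.28 in control and 7.84, 7.87 and 7.96 in metronidazole-treated larvae. The difference was 0.50 (standard error 0.13, limma adjusted p = 0.952). The choline transporter gene slc5a7a differed by 0.34 and chata, the gene of the enzyme that makes acetylcholine, by 0.31. The groups did not overlap upwards for 3 of the 9, against 5.14% of all genes. These are the 3 genes named for their low p, so nothing is read from this. All other genes of the list overlapped: isl2b (0.35), mnx1 (0.15), slc18a3b (0.13), isl2a (0.12), mnx2a (-0.003) and olig2 (-0.31). In vertebrates slc18a3 lies inside the chat gene, so slc18a3a and chata are not independent loci. The part of the motor neuron genes in the values of urp2, urp1 and pkd2l1 was not tested.

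Hair cells and taste cells, in which other apical channels or pkd2l1 itself are known from fish or mammals, also had a list whose array medians did not overlap, from -0.14 to -0.01 in control and from 0.01 to 0.17 in metronidazole-treated larvae. By replicate number, however, the median of the list was -0.07, 0.16 and 0.38, so the first pair went the other way. Of 12 measured genes, 7 were positive and 5 negative, with a median of 0.12. The mechanotransduction channel gene tmc1 differed by 0.36 (standard error 0.15), the myosin gene myo7aa by 0.40 (standard error 0.20) and the tip link gene cdh23 by 0.23 (standard error 0.12). For myo7aa it was 0.23 without control replicate 3 and 0.22 as the mean over its transcript clusters. The part of these genes in the value of pkd2l1 was not tested either. Of 10 myelin genes, 6 were positive and 4 negative (median 0.04), with mag at 0.29, pmp22a at -0.42 and cldnk at -0.35. Without metronidazole replicate 1, pmp22a was at -0.09 and cldnk at -0.01. Of 7 genes of blood and endothelium, which share tal1 and gata2a with these neurons, 4 were positive and 3 negative (median 0.08). The myeloid factor gene spi1b was at -0.44, cdh5, an endothelial cadherin, at 0.32 and lmo2, a partner of tal1, at 0.15. As the mean over its transcript clusters cdh5 was at 0.24.

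**Figure D4:**
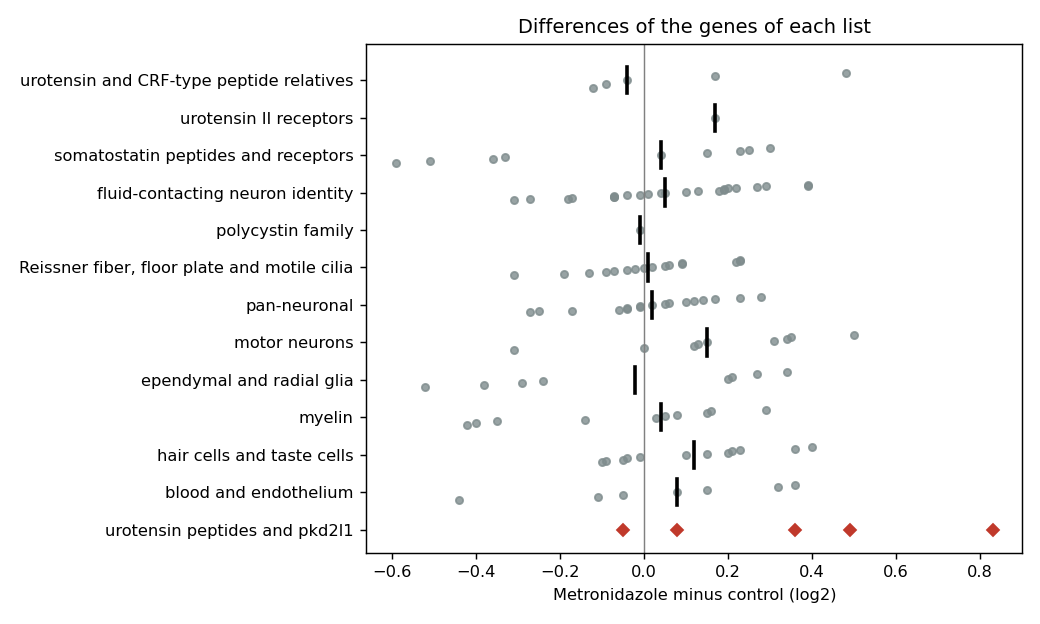
Difference in log2 signal between metronidazole and control for the measured genes of each list. Grey points are genes, black bars the list medians and red diamonds the 5 urotensin and fluid-contacting neuron genes. The point of urp2 at 0.83 lies to the right of every gene of the 12 lists, the highest of which is slc18a3a at 0.50. The 5 genes and the lists were chosen with earlier results of these arrays known, so this order is a description only.

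The genes beside the 5 loci were read as well. In the gene order of the RefSeq assembly GRCz12tu, the nearest 2 measured genes on each side of each locus made 20 genes, of which 0 passed limma's adjusted p and 0 had an unadjusted p under 0.05. Their log2 differences ran from -0.63 to 0.35, and the groups did not overlap for 1 gene upwards (5.0%, against 5.14% of all genes) and 1 downwards (5.0%, against 5.73%). Beside urp2, all 4 neighbours are named here outside the rule: runx1 differed by 0.02, LOC795531 by 0.06, LOC100333907 by 0.22 and rcan1b by -0.12. The single gene higher without overlap was LOC100333907.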

How the data were processed

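The deposited values were log2 signals of 75212 transcript clusters on each array, summarized and scaled by the authors. The labels name MAS5 with no role, and the summarization, background correction and normalization are not given in the sources used here. Detection calls were not used here. A single symbol of the platform's table was attached to 20806 transcript clusters, and the one with the highest mean stood for each of 19260 genes.

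The groups were compared with limma (version 3.58.1, R 4.3.3) through a two-sided moderated test with 4 residual and 2.69 prior degrees of freedom. Its p-values were adjusted by Benjamini-Hochberg over the whole table. Student's t-test assumed equal variances. Python 3.11.15 was used for tables and plots. The fit was tested on simulated data. The members, lists and rules were chosen with earlier results of these data known. The named genes were all members, all measured receptors, peptide relatives and polycystins, the 3 genes of each other list with the lowest p, and the 5 nearest profiles to urp1 and urp2, with clone and locus codes passed over.

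The labels number biological replicates 1 to 3, and the methods state 3 batches of larvae. Deviations from the group means correlated at 0.241, 0.148 and 0.127 between arrays of the same number and at -0.171 to 0.0506 otherwise. Deviations within a group cancel out, so the former values push the latter down and the contrast is weaker than it looks. The number was taken to pair the arrays. It entered only an alternative fit, so the standard errors given with the differences come from the unpaired fit. In the paired fit they were 0.16 for urp2, 0.15 for urp1, 0.13 for pkd2l1, 0.18 for uts2a and 0.15 for uts2b. Among list genes they changed in both directions, as from 0.36 to 0.24 for sst2 and from 0.16 to 0.18 for sstr5. The other alternatives were quantile normalization, median centring, each array left out, a filter at the median mean, an intensity trend, mean linear signals and all transcript clusters of a symbol.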

Additional observations from a re-analysis of the deposited data

How the results depend on the processing

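The differences of the 5 genes moved by no more than the pooled within-group SD of each gene under all alternatives run for them. With 3 arrays a group, leaving out an array cannot move a difference past that bound, so it is no test of stability. The replicate block and the mean over transcript clusters leave the differences unchanged by construction, as the groups are balanced and each gene had 1 cluster. With each array left out in turn, the log2 difference ran from 0.64 to 0.98 for urp2, from 0.22 to 0.44 for urp1, from 0.34 to 0.65 for pkd2l1, from -0.24 to 0.08 for uts2a and from -0.02 to 0.19 for uts2b, so the sign turned only in the latter 2. Under the other alternatives urp2 lay between 0.82 and 0.86 and pkd2l1 between 0.48 and 0.49. The filter at the median mean removed urp1 and uts2a. With the replicate block, limma called 0 transcript clusters and 0 list genes at the adjusted p, and the pairing changed no call. Both counts were also 0 under quantile normalization, median centring, the filter, Student's t-test and with each array left out. The intensity trend, run for the whole table, and all transcript clusters of a symbol, run for the list genes, gave 0 as well. At an unadjusted p under 0.05 the replicate block gave 2209 transcript clusters higher and 3108 lower, and the filter 718 and 1195 of fewer tested. The count of list genes that were higher, 5 by limma, moved by over 1.5 times under 11 of 12 alternatives and ran from 1 to 10. With an array left out, the medians of 8 of the 12 lists turned sign, while that of the motor neuron list stayed between 0.10 and 0.28 and that of the hair and taste cell list between 0.04 and 0.19. Low signals, as for uts2a and uts1, may limit what fold could be seen, though no floor was measured.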
